A study of Mus musculus with 12 samples.

Results

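The 9 genes described here belong to the BCL2 family and the caspases that govern survival of the oocyte. They are *Bcl2*, *Bcl2l1*, *Mcl1*, *Bax*, *Bak1*, *Bok*, *Bcl2l11*, *Casp2* and *Casp9*, chosen by symbol among the 55401 genes of the deposited count table. Oocytes were chosen by the morphology of their follicle and cut by laser capture microdissection (LCM) from H&E-stained sections of fixed ovaries in paraffin. The ovaries came from female F1 mice (C57Bl/6j x CBA/J in the labels, C57BL/6JRj x CBA/JRj in the methods) aged 7 to 8 days and had been cultured for 5 days, in medium with serum and follicle-stimulating hormone, with DMSO (control) or with dorsomorphin (DM), an inhibitor of the kinase AMPK that was dissolved in DMSO. The methods give 5 to 10 µM DM, with 10 µM as the lead concentration, and do not tie a dose to these libraries. The 4 groups were oocytes of primordial and of primary follicles, each from control and from DM ovaries (primordial controls, primary controls and their DM counterparts below), with 3 libraries of 200 pooled oocytes per group. The labels name the control a sham and call the material in vivo, whereas the methods describe cultured ovaries.

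BCL2 family proteins control the outer membrane of the mitochondrion. BCL2, BCL-XL and MCL1 keep it intact, BAX, BAK and BOK open it, and BH3-only proteins such as BIM tip the balance towards opening. Released cytochrome c then assembles with APAF1 and activates caspase 9, while caspase 2 is an initiator caspase known for its role in the death of mouse oocytes, and loss of primordial oocytes by apoptosis helps to set the ovarian reserve. The study asked whether DM affected oocyte quality. It examined apoptosis in ovary sections and the balance of BAX and BCL-2 as protein in pooled whole ovaries. The transcripts below are RNA of captured oocytes, so they touch the same question in other material and do not repeat those measurements.

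The libraries held 14034586 to 42639326 counts, and 4206 to 10687 genes had more than 3 counts in a library. A count of 0 allows up to 3 counts, which corresponded to 0.0704 to 0.214 CPM (counts scaled to the total of the library). This limit covers counting error only, because the amplified reads carry no molecular identifiers and are not independent molecules. Libraries of 1 group differed widely, with a biological coefficient of variation of 1.76 to 1.90 over the comparisons, and p-values measure only this spread between libraries, which may be technical. Of 16 oocyte markers, *Sohlh2* was never above 3 counts, and the summed level of the list ran from 14.3 to 1465 CPM over the libraries, with all 4 groups overlapping. Of 9 granulosa cell markers, *Fshr* and *Cyp19a1* were never above 3 counts, and the sum ran from 4.18 to 11124 CPM. All 9 stromal markers were counted somewhere, and their sum was 2164 to 12531 CPM, above the oocyte sum in every library. The sum of 4 endothelial markers, of which *Tek* was never above 3 counts, was 609 CPM in DM replicate 2 of primordial follicles. It was 18.2 and 0.190 CPM in DM replicates 1 and 3 of that group and at most 34.7 CPM in the other groups. The sum of 5 immune markers, of which *Adgre1* was never above 3 counts, was 81.8 CPM in the same DM replicate 2. It was 0 in DM replicates 1 and 3 of that group and at most 2.77 CPM in the other groups. The part that other cells played in the levels of the survival genes was not tested, and in such bulk material fewer cells of a type and less RNA per cell cannot be told apart.

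Most of the survival genes were counted in few libraries. Only *Mcl1* and *Casp2* of the 9 genes had more than 3 counts in all 12 libraries, and the median gene of the 9 had them in 5. Over all genes, 14881 of 55401 had more than 3 counts somewhere, 2002 of these had them in every library and the median was 4 libraries. The number of the 9 genes above 3 counts was 7, 5 and 4 in the primordial controls against 6, 6 and 3 under DM. It was 6, 3 and 2 in the primary controls against 3, 2 and 2 under DM. The 5 libraries with 4206 to 5314 genes held 2 or 3 of the 9, and the 7 libraries with 7085 to 10687 genes held 3 to 7, as the plot of members against all genes shows. A single library often held most of a gene's signal: the share of the summed CPM found in its top library had a median of 57.4% for the 9 genes and of 66.0% for all genes above 3 counts somewhere.

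**Figure D1:**
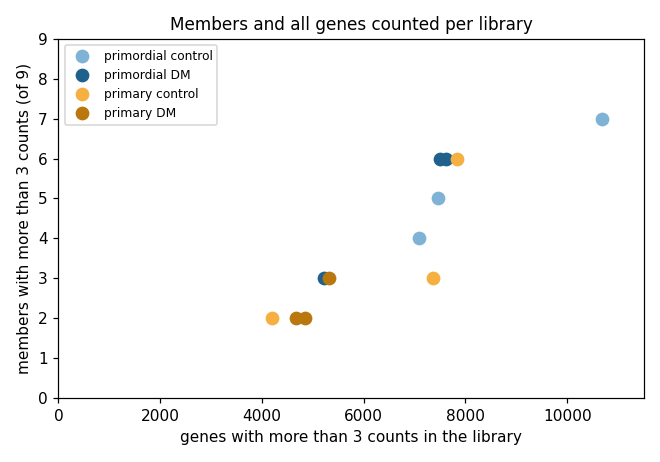
Number of the 9 survival genes with more than 3 counts (y axis) against the number of all genes with more than 3 counts (x axis), 1 point per library, coloured by group. The library with 10687 genes held 7 of the 9, and the 3 DM libraries of primary follicles, with 4670 to 5314 genes, held 2 or 3.

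No survival gene passed an adjusted p under 0.05 in any comparison (edgeR's quasi-likelihood test, Benjamini-Hochberg adjustment over all genes tested). Of all genes tested, 0.0149% did for DM in primordial follicles and 0% did for DM in primary follicles, between stages in controls, between stages under DM and for the interaction of stage and DM. For DM, the log2 fold changes of *Mcl1* and *Casp2* were negative in oocytes of primordial follicles, where 5 of the genes were tested, and positive in those of primary follicles, where these were the only 2 tested. The positive value of *Casp2* rested on 1 library, DM replicate 2, without which it was -4.20. *Casp9* was counted in all primordial controls and was at 0 in every DM library. The other genes were at or under 3 counts in 7 or more of the 12 libraries. The plot of CPM by library shows each gene in each library.

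**Figure D2:**
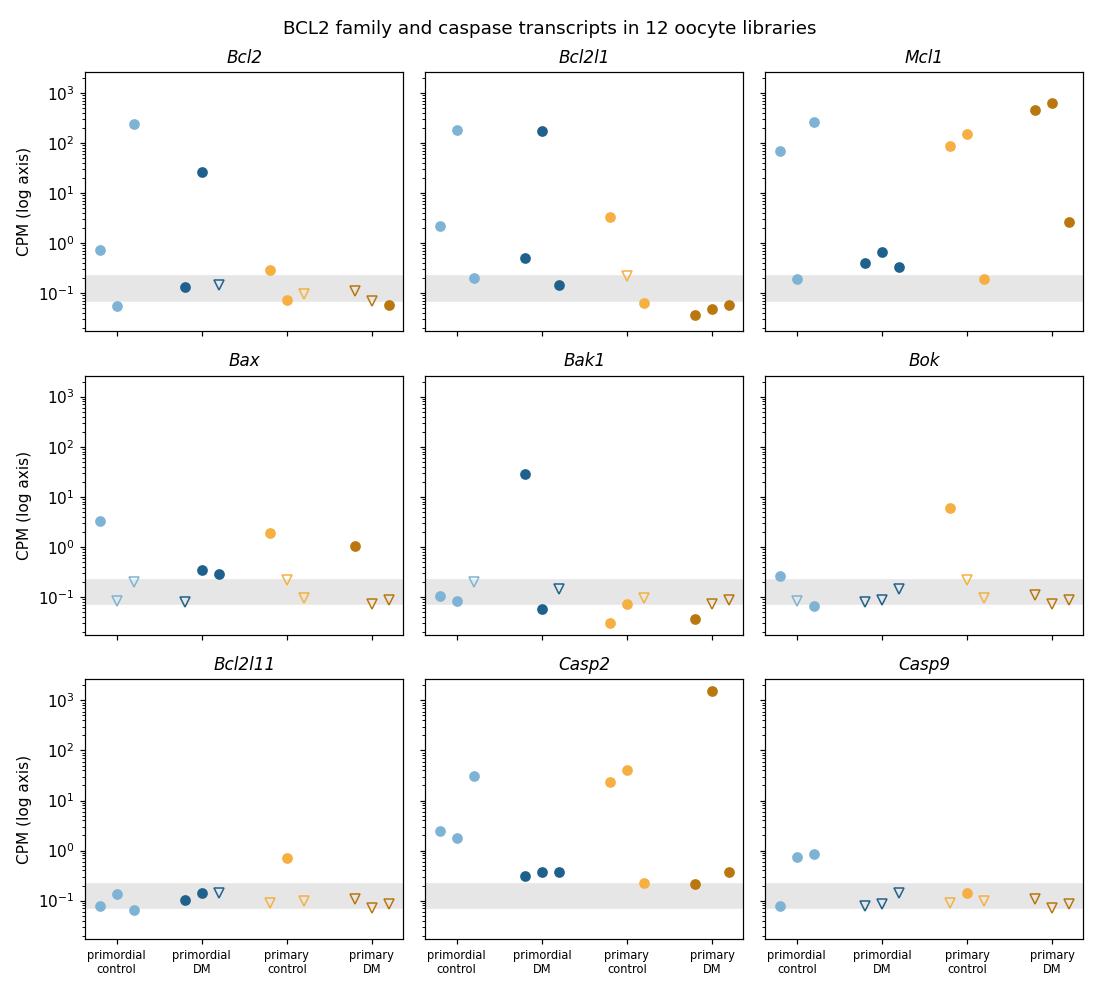
CPM on a log axis for each of the 9 genes in 3 libraries of each of 4 groups (filled points, 1 per library). Open triangles are libraries with a count of 0, drawn at the CPM that 3 counts would have, and the grey band spans that limit over the libraries (0.0704 to 0.214 CPM). *Mcl1* and *Casp2* are above 0 throughout, while *Casp9* and *Bok* are open triangles in all 6 DM libraries.

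The sequences upstream of *Mcl1*, *Casp2* and *Casp9* are printed because the results turn on these 3 genes. They are the 250 bases before the RefSeq start on GRCm38.p6, and capitals mark the GC box, GGGCGG on the strand printed or CCGCCC where it lies on the other strand.
Mcl1 promoter, chr3:95658471-95658720, + strand: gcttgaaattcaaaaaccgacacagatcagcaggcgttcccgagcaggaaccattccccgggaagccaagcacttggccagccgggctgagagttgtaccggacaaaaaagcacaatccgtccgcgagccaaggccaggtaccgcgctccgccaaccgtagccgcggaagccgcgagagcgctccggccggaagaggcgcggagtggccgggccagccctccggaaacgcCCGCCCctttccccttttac
Casp2 promoter, chr6:42264735-42264984, + strand: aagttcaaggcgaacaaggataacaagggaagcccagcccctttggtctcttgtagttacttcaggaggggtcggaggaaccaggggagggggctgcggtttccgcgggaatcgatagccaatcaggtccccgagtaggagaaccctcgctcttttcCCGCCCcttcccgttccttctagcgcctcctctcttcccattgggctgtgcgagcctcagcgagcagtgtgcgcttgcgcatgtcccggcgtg
Casp9 promoter, chr4:141793362-141793611, + strand: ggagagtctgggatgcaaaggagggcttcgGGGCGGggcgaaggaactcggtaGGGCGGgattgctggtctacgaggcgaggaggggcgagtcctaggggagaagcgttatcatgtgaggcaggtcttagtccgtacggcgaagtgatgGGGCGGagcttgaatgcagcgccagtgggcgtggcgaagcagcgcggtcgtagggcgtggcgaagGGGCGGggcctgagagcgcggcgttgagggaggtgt
The *Mcl1* and *Casp2* windows hold 1 GC box each, starting at position -20 and -93 from the start, and the *Casp9* window holds 4. Their GC content was 64.4%, 60.4% and 66.0%. GC boxes also lay in the windows of *Bcl2* (7), *Bax* (2), *Bok* (1) and *Bcl2l11* (3 and 2), and in none of *Bcl2l1* or *Bak1*. A GC box occurs in 32.7% of 32851 promoter windows of this length. The FOXO core GTAAACA, present in 3.17% of windows on either strand, was found among the 12 windows of the 9 genes only in 1 of the *Bcl2l11* windows, at position -227. The CRE letters TGACGTCA, in 1.55% of all windows, occurred in none of the 12, and the E-box letters CACGTG, in 6.02%, occurred in the *Bax* window. A match of letters is a description and no evidence of binding.

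Among the genes that keep the mitochondrion intact, *Mcl1* had the highest median CPM per kilobase of exon over all libraries. *Mcl1* (ENSMUSG00000038612.16, chromosome 3, 95658788 to 95663176 on GRCm38, exons of 3418 bases) encodes a short-lived protein of the outer mitochondrial membrane. Its counts in oocytes of primordial follicles were 2629, 7 and 4002 in controls against 15, 23 and 7 under DM. In primary follicles they were 2995, 2151 and 6 in controls against 12700, 26585 and 92 under DM. Control replicate 2 of primordial and control replicate 3 of primary follicles were thus as low as the DM libraries of primordial follicles, and the groups overlapped within each stage. Under DM, however, every library of primary follicles lay above every library of primordial follicles. The *Mcl1* library with 26585 counts had the highest granulosa marker sum of the series (11124 CPM) and the one with 12700 counts the highest stromal sum (12531 CPM). Control replicate 3 of primary follicles, with 6 counts of *Mcl1*, came next in both sums (7450 and 6492 CPM). The part of these cells in the level of *Mcl1* was not tested.

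The median level of *Mcl1* was 69.5 CPM in primordial controls, 0.392 CPM under DM, 87.9 CPM in primary controls and 462 CPM under DM. DM against control gave a log2 fold change of -7.39 in primordial (SE 3.95, adjusted p = 0.658) and 4.30 in primary follicles (SE 3.50, adjusted p = 0.517) in edgeR. Between stages, *Mcl1* did not separate in controls (log2 fold change -0.56, SE 2.68, adjusted p = 0.986), and under DM it was higher in primary follicles by a log2 fold change of 11.27 (SE 4.25, unadjusted p = 0.00999, adjusted p = 0.286). The DM difference itself differed between stages by 12.06 on the log2 scale (SE 4.40, unadjusted p = 0.00615, adjusted p = 0.147). Each of these values misses the threshold after adjustment over all genes.

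DESeq2, the tool the study names, called *Mcl1* where edgeR did not. Its adjusted p was 0.0152 in primordial follicles (log2 fold change -7.17, SE 2.21), and over the settings tried with all libraries this p ranged from 0.0152 to 0.999. It was 0.0161 in primary follicles (log2 fold change 7.03, SE 2.22, range 0.0161 to 0.999), 6.87e-07 between stages under DM (12.64, SE 2.19, range 6.87e-07 to 0.977) and 8.90e-05 for the interaction (14.71, SE 3.02, range 8.90e-05 to 0.761). In these comparisons DESeq2 called 5.67%, 7.48%, 10.3% and 4.97% of all genes tested. Between stages in controls it called 2.41% of all genes and not *Mcl1* (adjusted p = 0.864). In edgeR, leaving out each library in turn kept the fold change of *Mcl1* between -7.93 and -5.23 in primordial and between 2.97 and 5.08 in primary follicles, and the interaction between 9.77 and 12.55.

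*Bcl2* (ENSMUSG00000057329.7, chromosome 1, 106538178 to 106714274, with *D630008O14Rik* on the opposite strand) encodes the founding anti-apoptotic protein. It had 27, 2 and 3566 counts in primordial controls against 5, 934 and 0 under DM, and in primary follicles 10, 1 and 0 in controls against 0, 0 and 2 under DM. The signal thus sat in control replicate 3 and DM replicate 2 of primordial follicles, and the groups overlapped. DM against control gave -2.75 on the log2 scale in primordial follicles (SE 3.19, adjusted p = 0.859, edgeR), and without single libraries this ranged from -9.84 (without DM replicate 2) to 5.45 (without control replicate 3). In primary follicles, and between stages, *Bcl2* did not pass the filter on low counts. Without that filter its log2 fold change between stages in controls was -9.15 (unadjusted p = 0.0259, adjusted p = 0.509, edgeR).

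*Bcl2l1* (ENSMUSG00000007659.18, chromosome 2, 152780668 to 152831728) encodes BCL-XL. Its counts were 84, 6855 and 3 in primordial controls against 19, 6024 and 3 under DM, so that 1 library of each group held nearly all reads. In primary follicles they were 112, 0 and 2 in controls against 1, 2 and 2 under DM. The log2 fold change in primordial follicles was 0.05 (SE 2.94, adjusted p = 0.998, edgeR), against -0.11 when scaled by library size alone (added with the values in view). Without DM replicate 2 it was -7.50, and without control replicate 2 it was 6.70. Between stages in controls it was -5.84 (SE 3.60, adjusted p = 0.782), and 0.71 without control replicate 2 of primordial follicles. Under DM, *Bcl2l1* was lower in every library of primary than of primordial follicles, with a ratio of summed counts, scaled to the totals, of 0.000740 (95% interval 0.000240 to 0.00173, exact, counting error only) that rested on the single library with 6024 counts. The third of the primordial DM libraries, at 3 counts, lay at the limit that a count of 0 allows.

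The genes that open the mitochondrion were counted in few libraries. *Bax* (ENSMUSG00000003873.11, chromosome 7, 45461697 to 45466898, overlapping *Gm45808* on the same strand) encodes the effector that moves from the cytosol to mitochondria. It had 122, 0 and 0 counts in primordial controls against 0, 12 and 6 under DM, and 65, 0 and 0 in controls against 28, 0 and 0 under DM in primary follicles. No group stood apart, since each held at least 1 library at 0. The log2 fold change in primordial follicles was -1.08 (SE 2.01, adjusted p = 0.924, edgeR) and 0.46 with DESeq2's size factors, so no direction can be given.

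*Bak1* (ENSMUSG00000057789.14, chromosome 17, 27019810 to 27029009, with *Ggnbp1* on the opposite strand) encodes the effector resident in the mitochondrial membrane, and 1070 of its reads lay in DM replicate 1 of primordial follicles. The remaining 11 libraries held 0 to 4 counts, and 98.7% of its summed CPM came from that 1 library. *Bok* (ENSMUSG00000026278.14, chromosome 1, 93685660 to 93695764), an effector relative described in reproductive tissue, had 10, 0 and 1 counts in primordial controls and 199, 0 and 0 in primary controls. It was at 0 in all 6 DM libraries. Against a limit of 3 counts per library, *Bok* was at least 22.0-fold lower under DM in primary follicles, and without control replicate 1 no fold can be given, since the remaining controls were at 0. In primordial follicles it was at least 1.08-fold lower, and the corresponding value was 0.323 without control replicate 1.

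*Bcl2l11* (ENSMUSG00000027381.16, chromosome 2, 128126038 to 128162547) encodes BIM, the BH3-only protein that FOXO3 is known to induce in several cell types. Its counts were 3, 5 and 1 in primordial controls against 4, 5 and 0 under DM. Primary follicles gave 0, 10 and 0 counts in controls against 0 in all 3 DM libraries. No library exceeded 10 counts, the groups overlapped, and a difference in *Bcl2l11* was not detectable in these counts.

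Of the caspases, *Casp2* (ENSMUSG00000029863.13, chromosome 6, 42264985 to 42282508, exons of 7057 bases) was counted in every library. In oocytes of primordial follicles it had 93, 66 and 466 counts in controls against 12, 13 and 8 under DM, and the groups did not overlap. Primary follicles gave 787, 568 and 7 counts in controls against 6, 65026 and 13 under DM. DM replicate 2 of primary follicles alone thus held 93.8% of the summed CPM of *Casp2*, and the other DM libraries of both stages lay between 6 and 13 counts.

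The levels of *Casp2* in primordial follicles were 11.7 ± 16.6 CPM in controls and 0.356 ± 0.0362 CPM under DM (SD, n = 3), a log2 fold change of -4.59 (SE 3.05, adjusted p = 0.695, edgeR). Without control replicate 3 it was -1.95. On CPM scaled by edgeR's TMM factors rather than to library totals, DM libraries lay wholly below the controls for 8.81% of all genes tested in that comparison. In primary follicles the log2 fold change was 7.11 (SE 3.84, adjusted p = 0.396), and it was -4.20 without DM replicate 2. Between stages it was 0.72 in controls (SE 2.95, adjusted p = 0.986) and 12.54 under DM (SE 4.28, unadjusted p = 0.00470, adjusted p = 0.286), and the latter was 0.81 without DM replicate 2 of primary follicles. The interaction was 12.04 (SE 4.17, unadjusted p = 0.00393, adjusted p = 0.132) and 0.37 without that library. The same library had the highest granulosa marker sum of the series, 11124 CPM. Control replicate 3 of primary follicles, with 7 counts of *Casp2*, had the next highest, 7450 CPM. The part of granulosa cells in the level of *Casp2* was not tested. DESeq2 gave *Casp2* an adjusted p of 0.155 in primordial follicles and withheld its p, as an outlying count, in the comparisons with DM-treated primary follicles.

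*Casp9* (ENSMUSG00000028914.13, chromosome 4, 141793612 to 141815976, with *Cela2a* and *Ctrc* on the opposite strand) encodes the caspase that APAF1 activates. It had 3, 27 and 13 counts in primordial controls against 0 in all 3 DM libraries. Primary follicles gave 0, 2 and 0 counts in controls against 0 in all DM libraries. The groups of primordial follicles did not overlap, although control replicate 1 lay at the limit that a count of 0 allows. Against 3 counts per DM library, *Casp9* was at least 5.43-fold lower under DM, and at least 3.95-fold lower without control replicate 3. The filter on low counts removed it, and without that filter its unadjusted p was 0.0408 and its adjusted p 0.460 (edgeR), while DESeq2 gave an unadjusted p of 0.0310 and no adjusted p.

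In primordial follicles, where the DM libraries of *Casp2* and *Casp9* did not overlap the controls, the sum of the granulosa markers did not overlap either. Of these 9 markers, 7 had more than 3 counts somewhere, and their sum was 364, 1610 and 1853 CPM in controls and 4.18, 241 and 289 CPM under DM. The oocyte sum overlapped, with a median of 485 CPM in controls and 66.0 CPM under DM. The number of oocyte markers above 3 counts did not overlap, at 14, 12 and 13 in controls against 9, 10 and 4 under DM. That of granulosa markers overlapped, at 7, 6 and 7 against 6, 7 and 4. The part of either cell type in the counts of *Casp2* and *Casp9* was not tested.

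Counted over the 9 genes, the filter left 5 to be tested for DM in primordial and 2 in primary follicles, 3 and 2 between stages in controls and under DM, and 5 in the interaction. At an unadjusted p under 0.05, 0 passed in the first 3 comparisons, beside 7.33%, 12.2% and 6.44% of all genes. Under DM between stages *Mcl1* and *Casp2* did, beside 17.2% of all genes in either direction and 5.54% that were higher. The same 2 genes passed in the interaction, beside 18.9% of all genes in either direction and 9.11% that were higher. Of groups without overlap, *Casp2* and *Casp9* were lower under DM in primordial follicles, beside 8.81% lower and 3.78% higher of all genes tested. Under DM, *Mcl1* was higher and *Bcl2l1* lower in primary follicles, beside 4.16% and 12.1% of all genes tested. No survival gene separated the groups for DM in primary follicles, where 2.87% of all genes were higher and 10.4% lower, or between stages in controls, where 1.92% were higher and 7.63% lower. *Casp9* and *Bcl2l1* were not among the genes tested, since the filter had removed them there. Overlap of the survival genes was judged on CPM scaled to library totals, and the shares of all genes on CPM scaled by TMM. The shares are therefore not quite the same measure. In the interaction, *Bcl2* had a log2 value of 1.99 (SE 4.40, adjusted p = 0.830) and *Bcl2l1* of -2.66 (SE 4.08, adjusted p = 0.742), and both changed sign without single libraries. *Bcl2* turned to -6.32 without control replicate 3 of primordial follicles and to -2.08 without DM replicate 3 of primary follicles, and *Bcl2l1* to 4.89 without DM replicate 2 of primordial follicles. These comparisons share libraries, so the values for 1 gene in different comparisons are not independent.

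**Figure D3:**
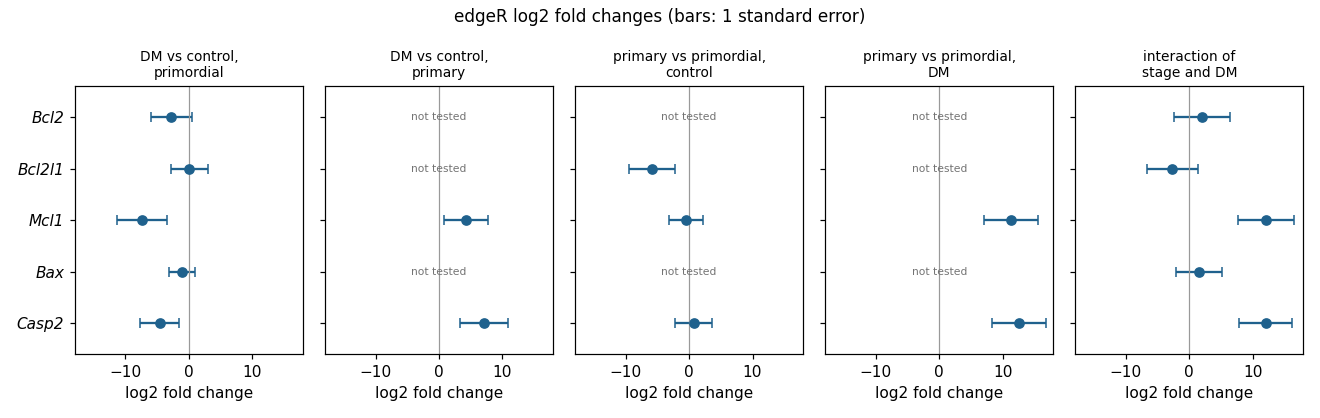
Log2 fold changes (x axis, edgeR) with bars of 1 standard error for the 5 genes that passed the filter in at least 1 of 5 comparisons. *Mcl1* and *Casp2* run from -7.39 and -4.59 in primordial follicles to 4.30 and 7.11 in primary follicles, and no value had an adjusted p under 0.05.

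Ordered by median CPM per kilobase of exon over all 12 libraries, *Mcl1* came first with 10.5, followed by *Casp2* with 0.153, *Bcl2l1* with 0.0372 and *Bak1* with 0.0136. The range of every gene overlapped that of the next. *Mcl1* led in primordial controls (20.3 CPM per kilobase), primary controls (25.7) and DM-treated primary follicles (135). In DM-treated primordial follicles its median was 0.115 CPM per kilobase, and *Bax*, with 0.181, came before it with overlapping ranges. *Bcl10*, despite its symbol no member of the BCL2 family (Spearman rho 0.93), *G6pdx* (0.88) and *Tubb5* (0.87) had the CPM patterns most like that of *Mcl1* over 12 libraries, among 4657 genes compared. *Khdrbs3* (0.87), *Dclk2* (0.85) and *Egfr* (0.85) were most like *Casp2*. *Mcl1* and *Casp2* themselves had a rho of 0.45. These values describe 12 libraries that differ in depth and in the number of genes counted, and carry no test.

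The balance of opening and protecting transcripts was compared as a log2 ratio of counts within each library, with 0.5 counts added. For *Bax* over *Bcl2* it was 2.16, -2.32 and -12.80 in primordial controls and -3.46, -6.22 and 3.70 under DM. In primary follicles it was 2.64, -1.58 and 0 in controls and 5.83, 0 and -2.32 under DM. In primary follicles, 4 of 6 libraries had 0 counts of *Bax* and at most 2 of *Bcl2*, so their ratios were set by the added 0.5 counts, and the test there compares little measured signal. In primordial follicles, *Bax* was at 0 in control replicates 2 and 3 and in DM replicate 1, and *Bcl2* in DM replicate 3. The size of those ratios, including -12.80, therefore also depends on the added 0.5 counts. The DM minus control difference was 2.33 in primordial (exact permutation test, two-sided p = 0.7) and 0.82 in primary follicles (exact p = 0.9), both with an adjusted p of 0.9 over 4 ratio tests, and 3 libraries against 3 cannot go below 0.1.

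The summed ratio of *Bax*, *Bak1* and *Bok* over *Bcl2*, *Bcl2l1* and *Mcl1* was -9.19 ± 4.26 in controls and -1.61 ± 6.88 under DM in primordial follicles (SD, n = 3), a difference of 7.57 (exact permutation test, two-sided p = 0.2, adjusted p = 0.6). In primary follicles it was -6.04 ± 3.86 in controls and -10.68 ± 4.38 under DM (SD, n = 3), a difference of -4.64 (exact permutation test, two-sided p = 0.3, adjusted p = 0.6). In these counts, which are not scaled to exon length, the protecting sum exceeded the opening sum in 11 of 12 libraries, the exception being DM replicate 1 of primordial follicles with 1070 counts of *Bak1*. Per kilobase of exon, DM replicate 3 of primordial follicles also turned, with *Bax* at 0.181 CPM per kilobase against 0.0973 for *Mcl1*, 0.0311 for *Bcl2l1* and 0 for *Bcl2*. The control and DM libraries overlapped in both stages, as the plot of the ratios shows.

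**Figure D4:**
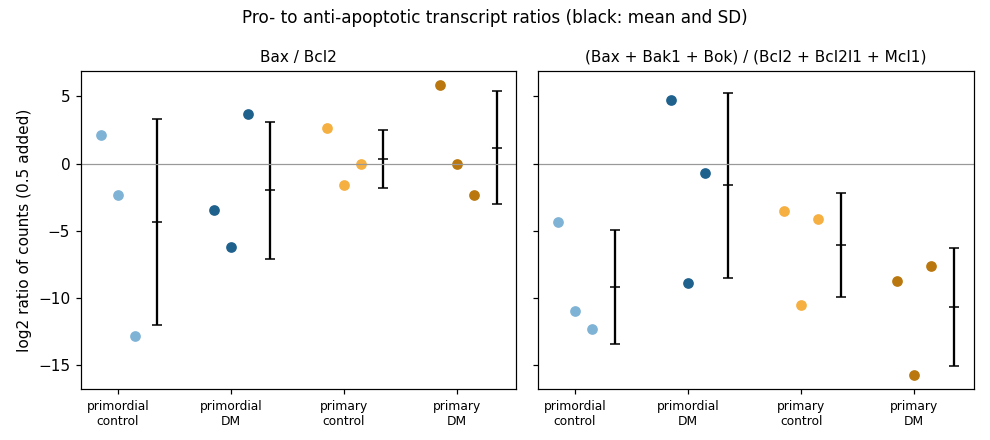
Log2 ratio of counts (y axis, 0.5 counts added) for *Bax* over *Bcl2* (left) and for the summed opening over the summed protecting genes (right), 1 point per library in 4 groups, with the mean and SD of 3 libraries in black. Groups overlap in both panels, and DM replicate 1 of primordial follicles is the only point above 0 on the right, at 4.76.

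Of 34 further genes of the apoptotic pathway, 23 had more than 3 counts in at least 1 library and *Aifm1*, a mitochondrial oxidoreductase released in cell death, had them in all 12. The filter left 10, 6, 8, 5 and 12 of the 34 in the comparisons in the order above, and 0 passed an adjusted p under 0.05 in each (edgeR). Their median log2 fold change was -0.02 over 10 genes for DM in primordial and 2.00 over 6 genes in primary follicles, beside 0.13 and 0.31 for all genes tested. For the survival genes it was -2.75 over 5 genes in primordial follicles, the value of *Bcl2* with its range from -9.84 to 5.45 without single libraries. In primary follicles it was 5.70 over 2 genes, of which *Casp2* turned from 7.11 to -4.20 without DM replicate 2. *Xiap*, which encodes an inhibitor of caspases, was the 1 gene with an unadjusted p under 0.05, for DM in primary follicles. The controls held 6, 17 and 1 reads, against 9, 5 and 10486 in the DM libraries (log2 fold change 9.57, SE 4.41, unadjusted p = 0.0301, adjusted p = 0.395), so that 1 library carried it. In primordial follicles *Xiap* had 673, 12 and 283 counts in controls against 7127, 216 and 1061 under DM.

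The partners of *Casp9* upstream, *Cycs* and *Apaf1*, were as uneven. *Cycs*, encoding cytochrome c, had 286, 983 and 0 counts in primordial controls against 0, 1 and 0 under DM, and 204, 278 and 1 in controls against 1, 0 and 2 under DM in primary follicles. In both stages 2 of 3 control libraries held it and no DM library had more than 2 counts, while control replicate 3 overlapped the DM libraries. *Apaf1* had 482, 2737 and 0 counts in primordial controls against 4290, 1026 and 1 under DM. Primary follicles gave 334, 19 and 1 counts in controls against 0, 3 and 4 under DM.

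Among the regulators, *Bcl2l2*, which encodes the protective BCL-W, had 72, 27 and 0 counts in primordial controls against 0, 2 and 1 under DM. Primary follicles gave 4240, 4 and 1 counts in controls against 109, 1 and 13 under DM. *Bbc3* and *Pmaip1*, which encode the BH3-only proteins PUMA and NOXA of oocyte death after DNA damage, were rare. *Bbc3* had 203, 30 and 0 counts in primordial controls, 0, 66 and 0 under DM, and 0 in all 6 libraries of primary follicles, whereas *Pmaip1* never exceeded 2 counts.

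The following genes were named after their values were seen. *Dffb*, the nuclease that cuts DNA in apoptosis, had 62, 17 and 4 counts in primordial controls against 0 in each of the other 9 libraries, which was at least 7.69-fold lower under DM in primordial follicles and at least 3.53-fold lower without control replicate 1. *Diablo*, whose product relieves the inhibition of caspases, had 626, 342 and 3 counts in controls against 11, 3 and 1 under DM in primordial follicles, and at most 3 in primary follicles, where the counts did not separate DM from control. DESeq2 called *Cycs* in primordial follicles (log2 fold change -8.99, adjusted p = 0.0199) and *Cflar*, an inhibitor of caspase 8, in primary follicles (7.42, adjusted p = 0.0339). *Cflar* had 3, 15 and 0 counts in primary controls against 0, 18 and 289 under DM, so that 1 library carried it. Between stages under DM, DESeq2 called *Bcl2l2*, *Cflar* and *Vdac2*, a mitochondrial channel that binds BAK (adjusted p of 0.0234, 0.0412 and 0.0121). In the interaction it called *Vdac2* (adjusted p = 0.0453). *Vdac2* under DM had 2, 297 and 4 counts in primordial and 12258, 2 and 1672 in primary follicles, with overlap. These were 1 of 22, 1 of 19, 3 of 17 and 1 of 20 pathway genes tested, beside 5.67%, 7.48%, 10.3% and 4.97% of all genes. Genes count as tested here if DESeq2 gave them a p. Many of these pathway genes had no adjusted p and so could not be called. None of these pathway genes had an adjusted p under 0.05 in edgeR.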

How the data were processed

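RNA of laser-captured oocytes was amplified, made into libraries (a TruSeq RNA Access kit and the Smart-seq II method are both named) and sequenced. Reads were trimmed by the authors (trim_galore) and mapped to mm10, with TopHat2 according to the methods and STAR according to the submitters' processing notes. The deposited values are raw counts per gene from featureCounts, without normalization. Whether counting used strand is not given in the sources used here, so overlapping genes can share reads.

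A symbol was found for 55141 of 55401 identifiers. No 2 libraries of a group agreed within sampling noise (smallest chi-square per degree of freedom 1146). The members and gene lists were chosen with earlier results of these data known. Named were the 9 members, of 34 pathway genes 8 fixed by name (2 of them are not reported here) and any with an unadjusted p under 0.05 in edgeR, and the 3 genes most like each member that had over 10 counts in at least 6 libraries (Spearman rho of log2 of CPM plus 0.5). Lists of oocyte, granulosa, stromal, endothelial and immune markers were summed as CPM.

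Comparisons used edgeR 4.0.16 in R 4.3.3 (filterByExpr, TMM, glmQLFit and glmQLFTest, prior count 0.125) on the libraries of the groups compared, and on all 12 for the interaction, adjusted by Benjamini-Hochberg over all genes tested, threshold 0.05. Standard errors were the log2 fold change divided by the square root of F. Ratios were tested by exact permutation with Python 3.11.15 and SciPy 1.17.1. The alternatives comprised DESeq2 1.42.0, its size factors in edgeR, no filter, an unadjusted p, a replicate block, all 12 libraries in 1 fit, a pseudocount of 3 for the ratios and each library left out, and library size alone was added after the values were seen. Code was tested on simulated counts of well-counted genes with far less spread between libraries than these data, whose common dispersion was 3.10 to 3.62. That test does not show how the fits perform at such a spread or at low counts. Positions are from an annotation of GRCm38, and promoters are from RefSeq (GRCm38.p6).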

Additional observations from a re-analysis of the deposited data

How the results depend on the processing

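Of 97 values recomputed under other settings with all libraries, 85 kept their direction and gained no call. A further 4 passed the threshold only then, and 8 changed sign. The 85 include values to which DESeq2 gave no adjusted p, such as *Casp2* for DM in primary follicles. For those only the direction could be compared. DESeq2 called *Mcl1* in each comparison but that of stages in controls, and gave most of the 9 genes no adjusted p. For DM in primordial follicles and for stages in controls, only *Mcl1* and *Casp2* had one. For DM in primary follicles only *Mcl1* did, and for stages under DM and the interaction only *Mcl1* and *Bax*. The other genes could not be called there. An unadjusted p in edgeR gave 2 genes between stages under DM and in the interaction. DESeq2 called 692, 713, 290, 988 and 596 of all genes where edgeR called 1, 0, 0, 0 and 0, and the cause was not tested. For DM in primordial follicles, *Bcl2l1* turned to -0.11 with library size alone, and *Bax* to 0.46 with DESeq2's size factors and 0.51 in DESeq2. Same-numbered libraries did not deviate together (correlations of -0.0449 to 0.0332), so a replicate block only shares a number. With the block, *Bcl2l1* turned to -0.35 and *Bax* to 3.37 for DM in primordial follicles, *Mcl1* to 0.96 between stages in controls, and *Bcl2* to -5.12 and *Bax* to -4.65 in the interaction. Without a change of sign, it moved *Casp2* from 7.11 to 0.12 for DM in primary follicles, from 12.54 to 2.43 between stages under DM and from 0.72 to 2.31 in controls, and *Bcl2l1* from -5.84 to -0.78 between stages in controls. It called 0 of the 9 genes. Over all genes tested for DM, the median change was 0.13 in primordial and 0.31 in primary follicles with TMM, 0.58 and 2.12 with DESeq2's size factors and -0.43 and -0.96 with library size alone. Leaving out each library kept 0 genes called in every comparison, and 13 of 131 values changed sign. These values ranged from -9.84 to 5.45 (*Bcl2*) and -7.50 to 6.70 (*Bcl2l1*) for DM in primordial follicles, from -4.20 to 7.90 (*Casp2*) for DM in primary follicles, and from -8.87 to 0.71 (*Bcl2l1*) and -1.08 to 1.57 (*Mcl1*) between stages in controls. In the interaction they ranged from -6.32 to 9.05 (*Bcl2*), -9.38 to 4.89 (*Bcl2l1*) and -5.95 to 8.16 (*Bax*). The log2 ratio of *Bax* to *Bcl2* differed by -1.91 to 5.57 (primordial) or -1.51 to 2.56 (primary) between DM and control, and the summed ratio by 4.39 to 11.2 or -6.86 to -2.13. With 3 libraries per group and a median standard error of 2.82 to 4.14 on the log2 scale, small differences could not be seen. Large ones could be missed as well. For *Mcl1*, edgeR made no call at -7.39 for DM in primordial follicles (adjusted p = 0.658). Nor did it at 11.27 for the stages compared under DM (adjusted p = 0.286). The lack of a call in edgeR thus does not exclude a large difference.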
